A study of Mus musculus with 3 samples.

Results

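A set of genes named for a later step of granulocyte and monocyte formation, Ms4a3, F13a1, Hp, Slpi, Tgfbi, Igsf6, Lyz2, S100a8, Fcgr3 and Anxa3, was followed through single bone marrow progenitors. They are 10 of the 31053 genes counted. The cells were LSK cells (lineage-negative, Sca-1-positive, Kit-positive), the marrow fraction that holds blood stem cells and multipotent progenitors. The donors were 2 animals labelled Helios-deficient and 2 wild-type animals, told apart by hashtag antibodies and run together in 1 droplet run. Helios, the product of Ikzf2, is a DNA-binding zinc finger protein related to Ikaros. The study asked what it does in this mixed population. The labels give no age, sex, strain or deleted exon, so what the deficient allele still makes is not known from them. The 10 genes were selected on their UMI counts in these cells with the comparison between genotypes known, so every genotype value below is a description of that choice and not a test of it. A UMI is a molecular tag that counts 1 captured transcript once, at its 3 prime end, whatever its length.

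Granulocytes and monocytes arise from shared progenitors through the factors PU.1 and C/EBP alpha. Early progenitors first make the proteases of the azurophil granules, such as neutrophil elastase (Elane), proteinase 3 (Prtn3) and cathepsin G (Ctsg), together with myeloperoxidase (Mpo). Later granulocytes turn to secondary granule proteins such as lactoferrin (Ltf) and cathelicidin (Camp), whereas monocytes gain Ly6c2, the chemokine receptor gene Ccr2 and the CSF-1 receptor gene Csf1r. LSK cells stand before most of these steps.

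By their RefSeq coordinates (GRCm38.p6, the mm10 build of the files), Ms4a3 (ENSMUSG00000024681) spans chr19:11629499-11640851 and F13a1 (ENSMUSG00000039109) spans chr13:36867178-37050244. Hp (ENSMUSG00000031722) lies at chr8:109575128-109579172, Slpi (ENSMUSG00000017002) at chr2:164354070-164356507 and Tgfbi (ENSMUSG00000035493) at chr13:56609586-56639359. Igsf6 (ENSMUSG00000035004) lies at chr7:121064067-121074581, Lyz2 (ENSMUSG00000069516) at chr10:117277541-117282272 and S100a8 (ENSMUSG00000056054) at chr3:90669071-90670034. Fcgr3 (ENSMUSG00000059498) lies at chr1:171051169-171065915 and Anxa3 (ENSMUSG00000029484) at chr5:96793385-96845968.

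The authors kept 557 and 824 cells of the Helios-deficient mice, and 1175 and 914 of wild type, with median depths of 8670, 8461, 7599 and 7627 UMIs per cell in that order. The gate's own genes were found as the labels would have it, with Kit in 53.0%, Ly6a (the gene of Sca-1) in 58.9% and Cd34 in 87.5% of the 3470 cells. Ikzf2 stood at 73.6 and 82.7 CPM (UMIs per 1000000 of the same mouse) in Helios-deficient mice, against 70.6 and 67.7 CPM in wild type. A 3 prime count does not show an internal deletion, so this level checks neither the allele nor the hashtags. Genes of finished neutrophils were near the floor: S100a9 had 12 UMIs in all kept cells, Camp 13, Ltf 5, and Ly6g and Cd177 had 0.

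The members divided into 3 kinds by how many cells carried them. Lyz2, lysozyme of phagocytes, had a UMI in 3088 of 3470 cells (89.0%, exact 95% interval 87.9 to 90.0%). Ms4a3 (8.96%), Tgfbi (7.67%), Anxa3 (5.53%) and Slpi (4.18%) were found in 145 to 311 cells each. Fcgr3 (1.61%), S100a8 (1.47%), F13a1 (1.44%), Hp (1.38%) and Igsf6 (1.07%) were found in 37 to 56 cells each, and the intervals of these 5 shares overlap. Intervals cover counting error only. Leaving Lyz2 aside, 2623 of the 3470 cells carried none of the other 9 genes, 692 carried 1 of them, 98 carried 2 and 57 carried 3 or more.

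Those 57 cells (1.64% of kept cells, exact 95% interval 1.25 to 2.12%) held 3.31% of all UMIs, yet they held most of the RNA of several members. They carried 94.0% of the Hp UMIs, 92.1% of the F13a1 UMIs and 86.3% of the Igsf6 UMIs. The share was 66.7% for S100a8, 62.1% for Fcgr3, 50.9% for Anxa3, 49.1% for Ms4a3 and 48.4% for Slpi. Tgfbi and Lyz2 stood apart, with 8.39% and 6.75% of their UMIs there. A cell enters this group through the same counts, so the shares describe the group and support nothing by themselves.

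**Figure D1:**
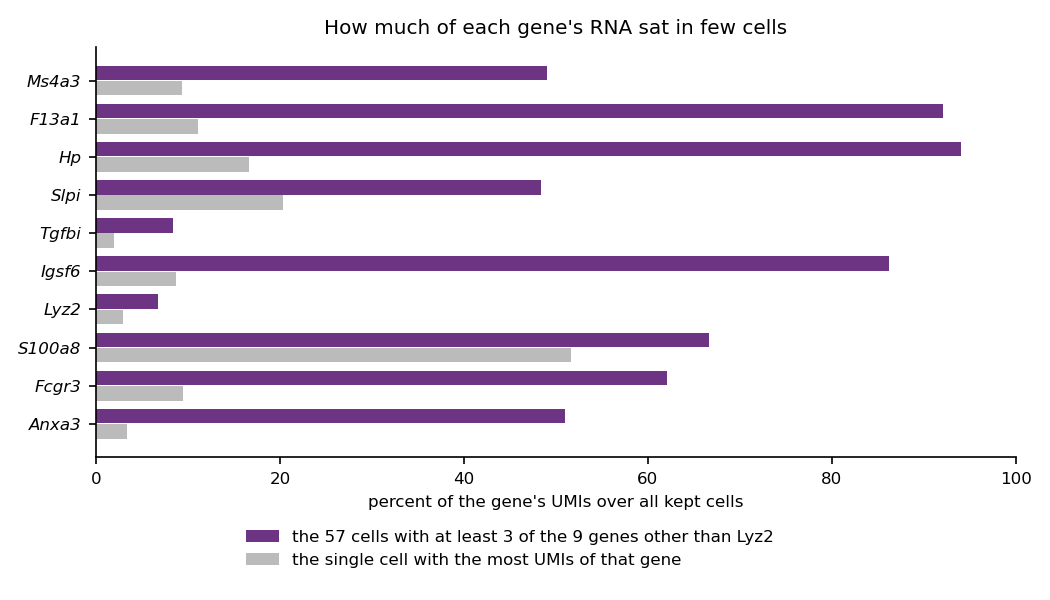
Percent of each gene's UMIs (horizontal axis) that lay in the 57 cells with at least 3 of the 9 genes other than Lyz2 (dark bars) and in the single cell with the most UMIs of that gene (grey bars). Hp, F13a1 and Igsf6 reach 94.0, 92.1 and 86.3% in the 57 cells, Tgfbi 8.39% and Lyz2 6.75%, and 1 cell held 51.6% of the S100a8 UMIs.

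A few single cells carried very large counts. The cell with all 10 members in the first Helios-deficient mouse had 23881 UMIs in total, with 79 UMIs of S100a8, 71 of Ms4a3, 39 of Hp, 11 of Fcgr3 and 550 of Elane. S100a8 encodes calgranulin A, which pairs with the product of S100a9 in calprotectin, but this cell had 0 UMIs of S100a9. The second cell with all 10 members, in the second Helios-deficient mouse, had 329 UMIs of Lyz2, 37 of Slpi and 23 of Hp. In wild-type mouse 1, a cell with 19 UMIs of S100a8 also had 345 of Elane and 7 of Cebpe, the gene of C/EBP epsilon that drives late granulocyte steps. These 2 S100a8-rich cells held 98 of the 153 UMIs, and no other cell had more than 2.

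The largest Slpi count was of another kind. Slpi encodes secretory leukocyte peptidase inhibitor, which blocks elastase, and 90 of its 442 UMIs lay in 1 cell of wild-type mouse 1. That cell had 32870 UMIs, of which Igkc took 54.2% and Ighm 16.7%, with 362 UMIs of Jchain and 63 of Xbp1, genes of antibody-secreting plasma cells. It had 398 UMIs of Ly6c2, 59 of Ly6a and 1 of Kit, 0 of Elane and Mpo, and no UMI of the other members apart from 1 of Lyz2. Summed per mouse, Igkc stood at 33.3 and 964 CPM in Helios-deficient mice, against 4038 CPM in wild-type mouse 1 and 34.1 CPM in wild-type mouse 2. The cell held 17822 of the 50265 Igkc UMIs of all kept cells, so most of them lay in other cells.

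Cells were next sorted into classes by genes or surface tags outside the set. Elane-high cells had at least 3 UMIs of Elane and none of Dntt, the terminal transferase gene of lymphoid progenitors. Pf4-high cells had at least 3 UMIs of the platelet factor 4 gene, and Dntt-high cells had at least 3 UMIs of Dntt and none of Elane. CD48-low CD150-high cells, the surface pattern of stem cells, had under 80 counts of the CD48 tag and over 88 of the CD150 tag, and C1q cells had at least 2 UMIs of the macrophage genes C1qa, C1qb and C1qc together. The classes held 32, 190, 514, 372 and 64 cells, and their median depths were 20398, 11478, 8758, 6913 and 9110.5 UMIs. Depth differs between them and can move a share of cells, so the CPM is given as well.

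In the Elane-high cells, 7 of the 10 members were found in 50.0% of cells or more besides Lyz2. These were Anxa3 (84.4%), Ms4a3 (81.2%), Hp (78.1%), Slpi and Igsf6 (56.2% each), F13a1 (53.1%) and Fcgr3 (50.0%). They stood at 187, 530, 282, 213, 79.8, 204 and 104 CPM in that order. Over all kept cells they stood at 9.81, 23.1, 7.13, 13.5, 2.44, 7.67 and 3.53 CPM. In Pf4-high cells Hp had 0 UMIs in 190 cells, which allows a share of cells with a UMI of up to 1.58% and sets no limit on cells that express it. F13a1, Igsf6, Fcgr3 and S100a8 were found in 1.05, 0.526, 2.11 and 2.63% of these cells, at 0.851, 0.425, 1.70 and 2.13 CPM. In Dntt-high cells the shares of Hp, Igsf6, S100a8 and Fcgr3 were 0.389 to 1.17%, at 0.578 to 1.16 CPM. F13a1 was found in 1.36% of Dntt-high cells, with 19 UMIs in 7 cells, at 3.66 CPM. The part of free RNA in these low shares was not tested.

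Ms4a3, a membrane protein of granulocyte and monocyte progenitors, was found in 21.1% of Pf4-high cells (exact 95% interval 15.5 to 27.5%), against 2.33% of Dntt-high cells (1.21 to 4.04%), at 30.2 and 2.89 CPM. In Pf4-high cells of the single mice the share was 12.1 and 27.9% in Helios-deficient mice, against 14.6 and 25.0% in wild type. Slpi and Anxa3, which encodes the calcium-dependent membrane-binding protein annexin A3, were found in 8.75% and 7.78% of Dntt-high cells, 6.32% and 5.79% of Pf4-high cells, and 0.538% and 3.49% of the CD48-low CD150-high cells. For both genes the intervals of the Dntt-high and Pf4-high shares overlap. In the same order of classes Slpi stood at 11.4, 6.81 and 0.677 CPM, and Anxa3 at 8.66, 5.11 and 4.74 CPM. Fcgr3, the gene of the low-affinity IgG receptor CD16, was found in 14.1% of C1q cells (6.64 to 25.0%), at 16.7 CPM. There F13a1 had 0 UMIs in 64 cells, which allows up to 4.69% of cells with a UMI. The mouse Fcgr3 and Fcgr2b genes encode related receptors, and Fcgr2b had 239 UMIs over all kept cells of every class. How reads of such relatives were split is not given in the sources used here.

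Lyz2 and Tgfbi were spread over the classes. Lyz2 was found in 83.9 to 96.9% of the cells of every class, at levels from 262 CPM in Dntt-high cells to 444 CPM in Elane-high cells. The Elane-high level rested on 1 cell of wild-type mouse 2 with 87 Lyz2 UMIs. Without it, a setting added after seeing the data, the class stood at 316 CPM. That is below the 390 CPM of CD48-low CD150-high cells and the 344 CPM of all kept cells. Without their own top Lyz2 cells, these 2 groups stood at 388 and 334 CPM. In the 20% of cells with the fewest UMIs Lyz2 stood at 395 CPM, and in the 20% with the most at 322 CPM. What share of the Lyz2 UMIs came from free RNA was not tested. Its close relative Lyz1 had 4 UMIs in all kept cells. Tgfbi, a secreted matrix protein that binds integrins, was found in 28.1% of Elane-high cells, but in 14.1% of C1q cells, 8.06% of CD48-low CD150-high cells and 3.70% of Dntt-high cells. It stood at 18.4 CPM in Elane-high, 13.9 CPM in C1q, 11.5 CPM in CD48-low CD150-high and 4.24 CPM in Dntt-high cells.

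**Figure D2:**
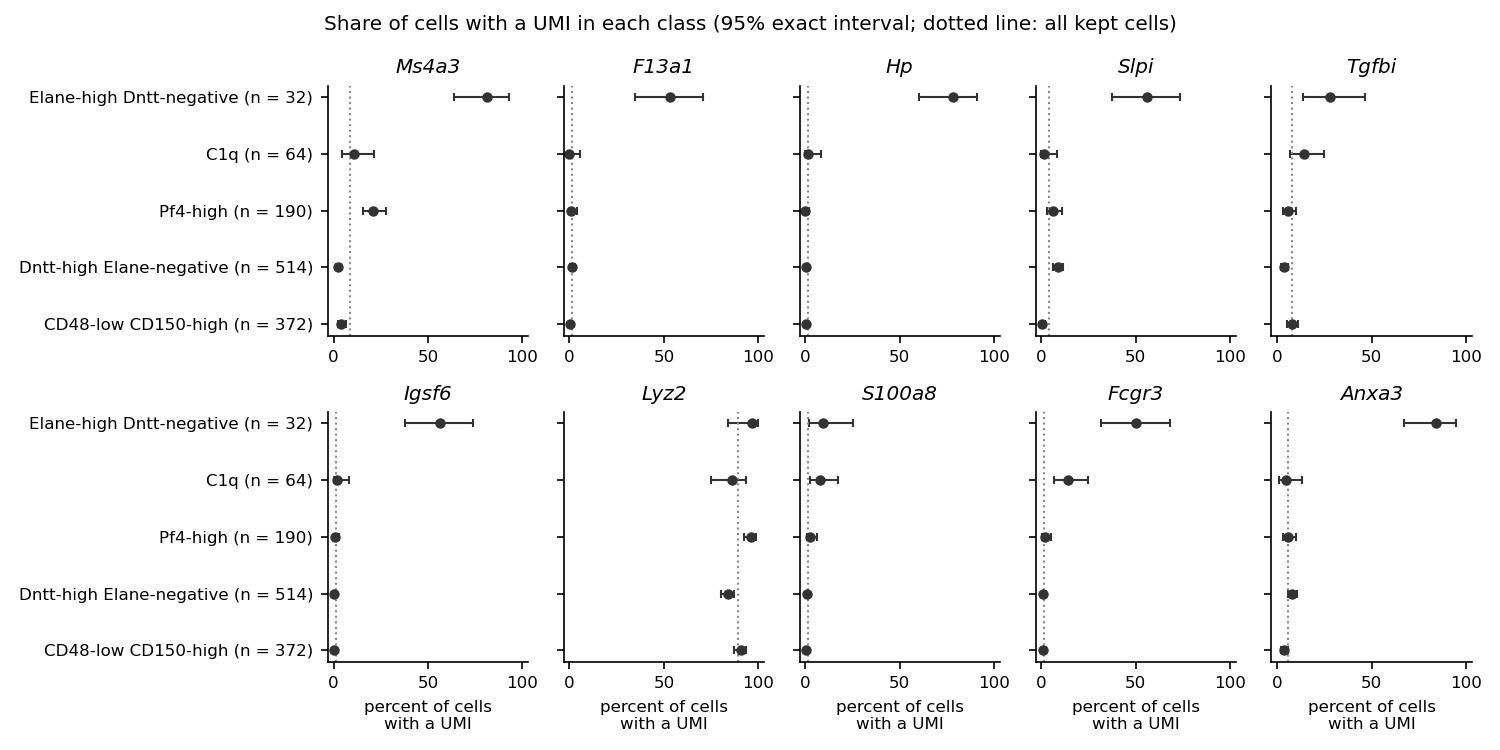
Percent of cells with a UMI of each gene (horizontal axis) in 5 classes of kept cells, given with their number of cells. Points are shares, bars exact 95% binomial intervals and dotted lines the share over all 3470 kept cells. Elane-high cells stand apart for all genes but Lyz2, S100a8 and Tgfbi, and Ms4a3 is also raised in Pf4-high cells.

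The rare members were higher in deep cells also per UMI, and Tgfbi and Lyz2 were not. Cells were split into 5 equal depth groups within each mouse, with a median of 5047 UMIs in the shallowest and 16014 UMIs in the deepest. Ms4a3 was found in 23.3% of the deepest and 2.45% of the shallowest cells, at 45.9 and 4.97 CPM. Anxa3 had 18.3 CPM in the deepest and 2.92 CPM in the shallowest cells, and Hp had 17.2 and 0.585 CPM. Tgfbi had 10.3 CPM in the deepest and 14.3 CPM in the shallowest cells.

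The rare members were then found together in the same cells. For each of the 45 pairs, the cells carrying both were set against the number that independence within the depth groups of each mouse gives. Hp and Fcgr3 were found together 11.4 times as often as independence gives, Hp and Igsf6 10.7 times, Igsf6 and Fcgr3 9.80 times and F13a1 and Hp 8.26 times. Over the 28 pairs without Lyz2 and Tgfbi the median ratio was 3.89. Ms4a3, the most widespread of these, had ratios of 1.28 with Anxa3 and 1.35 with S100a8. The ratios of Tgfbi lay between 0.840 and 1.91 and those of Lyz2 between 0.988 and 1.08. As a description over 3470 cells that share depth and libraries, Pearson's r of log-scaled counts was highest for Hp and Igsf6, at 0.65, and the highest with Tgfbi was 0.047. Haptoglobin (Hp) binds free hemoglobin and is stored in granules of maturing neutrophils. Igsf6 encodes an immunoglobulin-domain receptor of myeloid and dendritic cells, and F13a1 the A chain of coagulation factor XIII, a transglutaminase made by monocytes and megakaryocytes.

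**Figure D3:**
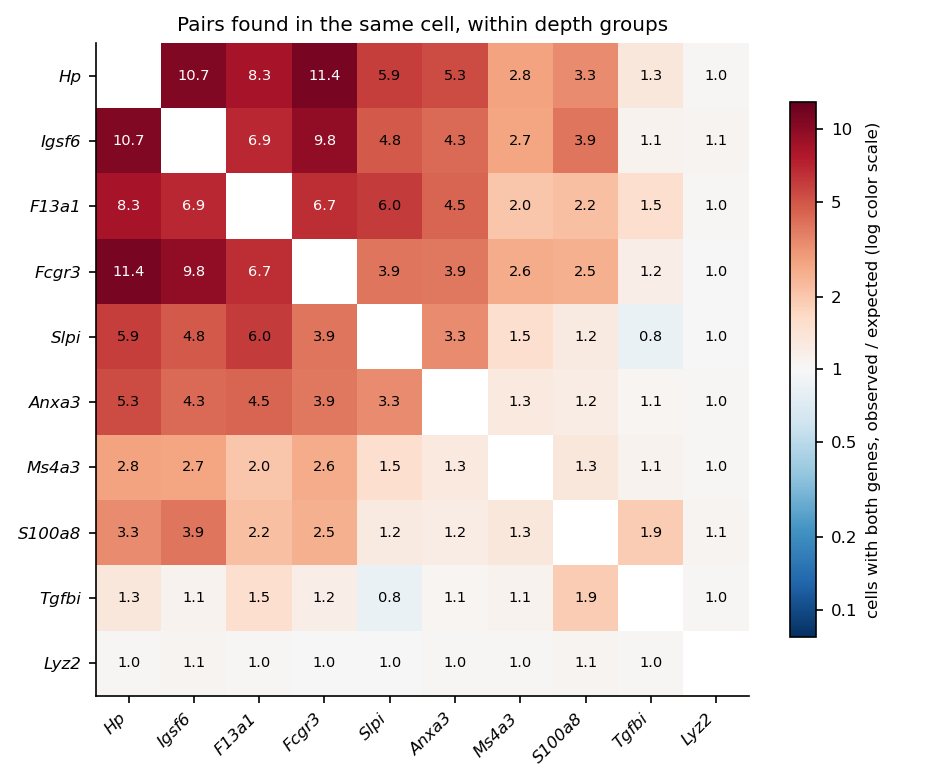
Cells carrying both genes of a pair, observed over expected within depth groups of each mouse (color on a log scale, value printed in each field). Pairs among Hp, Igsf6, F13a1 and Fcgr3 run from 6.65 to 11.4, while all pairs of Lyz2 lie near 1 and those of Tgfbi between 0.840 and 1.91.

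The start-site sequences of F13a1, Igsf6 and Fcgr3, which occurred in the same cells, are shown beside that of Tgfbi, whose ratio with each of these 3 was at most 1.53. Each is the 250 bases before a RefSeq transcript start (build GRCm38.p6), read along the gene's own strand, 5′ to 3′. Capitals mark matches to GAGGAA, the core of sites bound by PU.1 and other ETS factors, or to TTGCNNAA, a core of C/EBP sites, on either strand (TTCCTC and TTNNGCAA on the other).
F13a1, chr13:37050245-37050494, minus strand: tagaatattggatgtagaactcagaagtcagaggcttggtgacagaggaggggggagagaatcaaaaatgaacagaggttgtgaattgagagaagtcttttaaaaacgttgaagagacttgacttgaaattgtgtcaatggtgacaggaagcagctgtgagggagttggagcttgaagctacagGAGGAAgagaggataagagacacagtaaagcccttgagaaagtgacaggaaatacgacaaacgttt
Igsf6, chr7:121074531-121074780, minus strand: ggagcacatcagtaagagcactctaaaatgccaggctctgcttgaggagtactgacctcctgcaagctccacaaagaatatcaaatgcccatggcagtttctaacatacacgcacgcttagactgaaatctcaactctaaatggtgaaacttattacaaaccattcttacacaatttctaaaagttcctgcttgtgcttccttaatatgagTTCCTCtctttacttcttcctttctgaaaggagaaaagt
Fcgr3, chr1:171059404-171059653, minus strand: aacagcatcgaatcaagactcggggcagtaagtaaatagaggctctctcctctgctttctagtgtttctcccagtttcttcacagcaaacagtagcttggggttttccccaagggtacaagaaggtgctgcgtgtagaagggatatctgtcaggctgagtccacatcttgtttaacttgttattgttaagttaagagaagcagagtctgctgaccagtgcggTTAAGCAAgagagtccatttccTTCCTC
Tgfbi, chr13:56609336-56609585, plus strand: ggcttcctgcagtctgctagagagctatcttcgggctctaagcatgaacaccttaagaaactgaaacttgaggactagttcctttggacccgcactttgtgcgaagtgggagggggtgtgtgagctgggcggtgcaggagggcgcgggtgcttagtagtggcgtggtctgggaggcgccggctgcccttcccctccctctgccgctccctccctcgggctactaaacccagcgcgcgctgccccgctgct

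The F13a1 stretch holds 1 GAGGAA match whose first base lies 66 bases before the start, while a second listed start of F13a1 has neither motif. The Igsf6 stretch holds 1 on the other strand at 39 bases before it. Fcgr3, shown for the first of 2 neighbouring starts, holds a TTGCNNAA match at 28 and a GAGGAA match at 6 bases before the start. Both Fcgr3 starts lie inside the gene's span given above, whose 5′ end is at 171065915. The Igsf6 stretch overlaps its gene's span, which ends at 121074581. The Tgfbi stretch holds neither motif. Of the members not shown, Ms4a3 and Lyz2 held neither and S100a8 held only GAGGAA. Slpi, found with F13a1 5.95 times as often as independence gives, held only TTGCNNAA. The motifs thus did not follow co-occurrence throughout. Among the 8 members with a sequence in the table, 4 held GAGGAA and 2 held TTGCNNAA at their first listed start, against 23.3% and 9.56% of 32851 promoters of the same length. The 2 motifs do not overlap each other in the sequences shown. A match is a run of letters and not a measured binding site.

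The 57 cells were described further by measures outside the set. Their median depth was 18206 UMIs, and that of the other 3413 kept cells was 7836 UMIs. The CD48 tag, low in the stem cell surface pattern used above, had a median count of 245 in these cells, against 110 in the others. It made up a median of 60.5% of the 4 tags there, against 41.8%, while the CD150 tag made up 20.1%, against 30.1%. The CD48 median was higher in all 4 mice: 208 and 271 in the 57 cells of the Helios-deficient mice and 251 and 208 in those of the wild-type mice, with 99 to 121 in the others. The azurophil granule genes summed to 10535 CPM, against 901 CPM in the other cells. The 15 monocyte genes summed to 1968 CPM, against 165 CPM, and the 9 stem cell genes to 92.0 CPM, against 456 CPM. The 16 mature neutrophil genes summed to 83.8 CPM, against 33.2 CPM, with S100a9, Camp and Ltf at 0. S phase genes stood at 3155 CPM, against 2270 CPM, and G2 and mitosis genes at 2869 CPM, against 1816 CPM. Kit had a UMI in 59.6% of the 57 cells and 52.9% of the others, and Ly6a in 43.9% and 59.2%. Of the 57 cells, 30 had at least 3 Elane UMIs, 3 were Pf4-high, 5 were Dntt-high and none was a C1q cell. No doublet caller was run within mice, and the part of doublets in these deep cells was not tested.

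Within the 57 cells the members followed Elane unevenly. In the 18 cells with at least 10 Elane UMIs (6 and 9 in the Helios-deficient mice, 2 and 1 in the wild-type mice), Hp and Anxa3 were found in all 18 and Ms4a3 in 17, at 463, 243 and 872 CPM. In the 39 cells with fewer Elane UMIs (10 and 14 in the Helios-deficient mice, 9 and 6 in the wild-type mice), Ms4a3 stood at 51.4 CPM and Hp at 58.6 CPM. F13a1 differed less, at 292 and 170 CPM. Fcgr3 was found in 13 of the 18 and 7 of the 39 cells, and Igsf6 in 13 and 13. Csf1r, the monocyte growth factor receptor gene, was found in 9 of the 18 and 17 of the 39 cells, and Flt3 in 2 and 30. Cebpe was found in 4 of the 18 and 1 of the 39 cells. The cell richest in F13a1, with 28 UMIs, had 13 of Elane, and the next 2, with 22 and 17 UMIs of F13a1, had 8 and 6 of Elane.

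The genes whose counts followed the members' mean most closely were sought among 12203 other genes with a UMI in at least 20 cells, over 3470 cells and within mice. Elane led with a Pearson r of 0.58, followed by Ly6c2 (0.54), the myeloid receptor gene Trem3 (0.45) and Ctsg (0.43). Dmkn (0.32), Tifab (0.31), Mpo (0.30), Clec5a and C3 (0.28 each), Ccr2 (0.28) and Cybb, a subunit gene of the phagocyte oxidase (0.27), came next. Ms4a6c (0.26), Ifi209 and Ly86 (0.26 each) and Prtn3 (0.24) closed the first 15. Member by member, F13a1 was nearest to Ly6c2 (0.65) and Ccr2 (0.49), whereas Hp was nearest to Elane (0.75), Ly6c2 (0.64) and Trem3 (0.63). Igsf6 and Anxa3 had Elane and Ly6c2 first, at 0.60 and 0.54 for Igsf6 and 0.44 and 0.41 for Anxa3. Ms4a3 had Elane (0.50) and Trem3 (0.41) first. Slpi had Ly6c2 first (0.55), and the immunoglobulin-rich cell described above holds 398 UMIs of Ly6c2 and 90 of Slpi. S100a8 was nearest to Trem3 (0.31), Cebpe (0.29) and Elane (0.28), and Fcgr3 to Elane (0.43), Ly6c2 (0.40) and the macrophage gene Vcam1 (0.35). No gene exceeded 0.11 with Tgfbi (Bend7, Zfp503 and Tmem100 were nearest), and Lyz2 was nearest to Prtn3 (0.19), Cd63 (0.18) and Rab38 (0.16).

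Between genotypes, 6 of the 10 members were called higher in the Helios-deficient mice and none lower, with counts summed per mouse and tested by edgeR at an adjusted p below 0.05. Over all 11592 genes tested, 42 were called higher (0.362%) and 92 in either direction (0.794%). The members were chosen with this contrast known, so their count is not read against that share. The 6 were Ms4a3, F13a1, Hp, Igsf6, Tgfbi and Anxa3. With 2 mice per genotype an exact permutation test of a single value cannot go below p = 0.333, so calls rest on the model across genes.

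Ms4a3 stood at 41.2 and 31.8 CPM in Helios-deficient mice, against 13.8 and 13.6 CPM in wild type. The groups did not overlap, with log2 fold change 1.39 ± 0.14 SE (edgeR adjusted p = 8.6e-06, n = 2 mice each). F13a1 stood at 11.5 and 17.8 CPM in Helios-deficient mice, against 2.33 and 1.43 CPM in wild type (log2 fold change 2.96 ± 0.27 SE, edgeR adjusted p = 1.1e-05). These values rest on 66 and 150 UMIs of F13a1 in Helios-deficient mice, against 24 and 12 in wild type. Hp stood at 16.2 and 12.2 CPM in Helios-deficient mice, against 2.91 and 0.956 CPM in wild type (log2 fold change 2.79 ± 0.32 SE, edgeR adjusted p = 0.00083). Leaving out wild-type mouse 1 gave 3.85, and leaving out wild-type mouse 2 gave 2.27. Igsf6 stood at 3.84 and 4.39 CPM in Helios-deficient mice, against 1.26 and 0.956 CPM in wild type (log2 fold change 1.87, SE 0.36, edgeR adjusted p = 0.012). All 4 genes were lowest in wild-type mouse 2.

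Anxa3 and Tgfbi were called with smaller differences. Anxa3 stood at 13.1 and 13.9 CPM in Helios-deficient mice, against 7.46 and 6.34 CPM in wild type (log2 fold change 0.96 ± 0.18 SE, edgeR adjusted p = 0.0093). Tgfbi stood at 15.5 and 10.9 CPM in Helios-deficient mice, against 7.08 and 6.70 CPM in wild type (log2 fold change 0.91 ± 0.20 SE, edgeR adjusted p = 0.033). Tgfbi rested on the first Helios-deficient mouse, without which it was 0.66 with an edgeR adjusted p of 0.11. Its call was also lost by leaving out the 1 cell with 6 Tgfbi UMIs (edgeR adjusted p = 0.060). Tgfbi was carried by 13.3 and 9.34% of cells in the Helios-deficient mice and by 5.62 and 5.36% in the wild-type mice, and 88.0% of its carrier cells had a single UMI.

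Other settings ended some of these calls. DESeq2 called only Ms4a3, F13a1 and Hp among the 10, while the log2 fold changes of the others stayed about as large, at 1.89 for Igsf6 (DESeq2 adjusted p = 0.53), 0.97 for Anxa3 (0.44) and 0.93 for Tgfbi (0.59). At 4000 UMIs per cell only Ms4a3 (edgeR adjusted p = 0.033) and F13a1 (0.0025) were called, and with every single-mouse barcode included, kept or not, Ms4a3 (log2 fold change 1.40, edgeR adjusted p = 0.42), Hp (2.52, 0.42) and Igsf6 (1.35, 0.088) were not. Without the deepest 5% of cells the log2 fold change was 0.19 for Ms4a3 (edgeR adjusted p = 0.80), 0.56 for Hp (0.84) and 0.28 for Anxa3 (0.78), Igsf6 was too low to test, and F13a1 (2.07) and Tgfbi (0.83) were still called. The Helios-deficient mice had the deeper cells, with median depths of 8670 and 8461 UMIs, against 7599 and 7627 UMIs in wild type. The deepest 5% were taken over all mice together, so the genotypes lost unequal shares. Of 557 and 824 Helios-deficient cells 516 and 762 were left, against 1144 and 874 of 1175 and 914 in wild type. Over all genes, 124 of 11401 were called in that setting.

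The other 4 members were not called. Fcgr3 stood at 4.19 and 5.70 CPM in Helios-deficient mice, against 2.33 and 2.39 CPM in wild type (log2 fold change 1.09 ± 0.29 SE, edgeR adjusted p = 0.091). Without the first Helios-deficient mouse it was called, at 1.27 (edgeR adjusted p = 0.014). The share of cells with an Fcgr3 UMI overlapped between genotypes, at 1.26 and 1.94% in Helios-deficient mice, against 1.36 and 1.86% in wild type. Lyz2 stood at 297 and 390 CPM in Helios-deficient mice, against 360 and 311 CPM in wild type (log2 fold change 0.035 ± 0.17 SE, edgeR adjusted p = 0.97). The groups overlapped, and the sign of Lyz2 turned without the cell that held 329 UMIs (log2 fold change −0.048). Without the first Helios-deficient mouse Lyz2 was called, at 0.21 (edgeR adjusted p = 0.016), and without the second it was −0.17.

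S100a8 and Slpi turned on single cells. S100a8 stood at 15.4 and 2.02 CPM in Helios-deficient mice, against 3.39 and 1.55 CPM in wild type (log2 fold change 1.62 ± 1.51 SE, edgeR adjusted p = 0.83). Without the cell that held 79 UMIs it was −0.47 (edgeR adjusted p = 0.78), without the first Helios-deficient mouse −0.33, and without the second it was called at 2.58 (edgeR adjusted p = 7.8e-18). Slpi stood at 14.3 and 16.7 CPM in Helios-deficient mice, against 16.5 and 5.86 CPM in wild type (log2 fold change 0.44 ± 0.64 SE, edgeR adjusted p = 0.90). Leaving out the immunoglobulin-rich cell took wild-type mouse 1 to 7.75 CPM of Slpi, and the log2 fold change was then 1.19 (SE 0.18, edgeR adjusted p = 0.0012). Slpi was called at 1.41 when all of wild-type mouse 1 was left out, and stood at −0.069 when wild-type mouse 2 was.

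**Figure D4:**
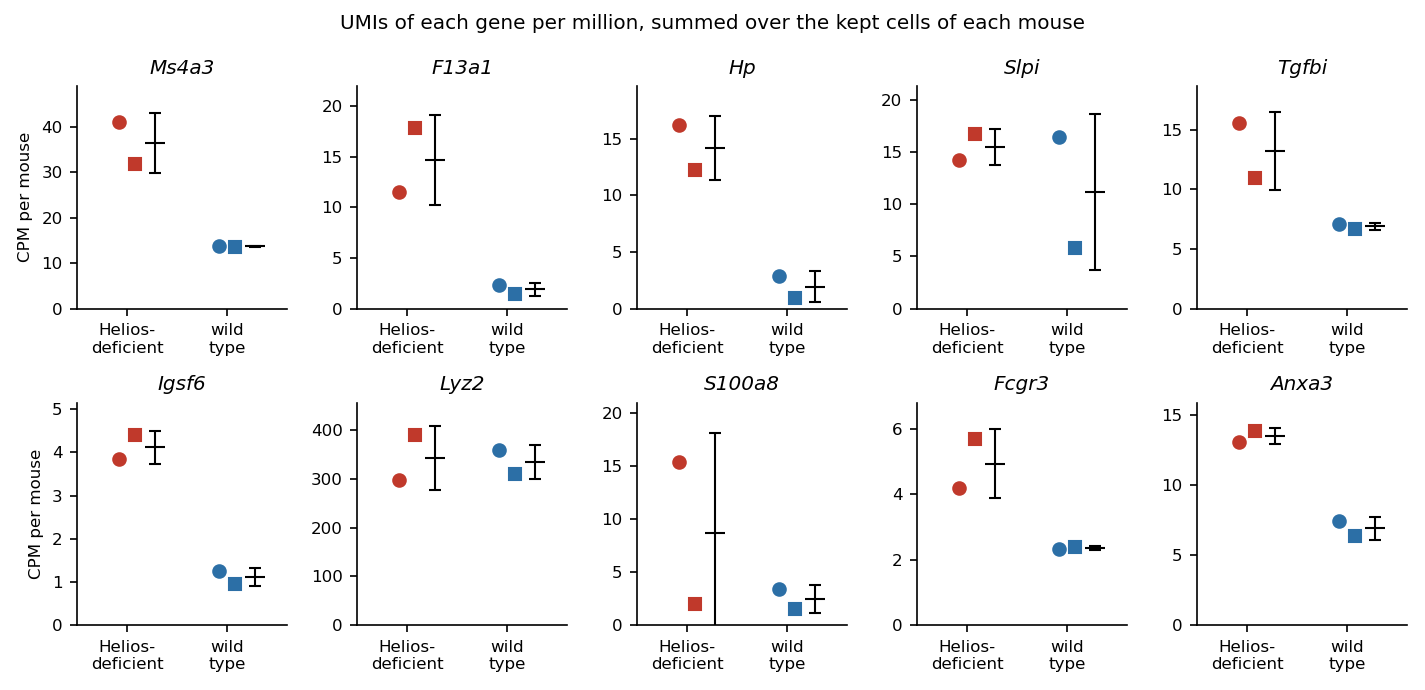
CPM of each gene (vertical axis, from 0) summed over the kept cells of each mouse, with Helios-deficient mice in red and wild-type mice in blue (circle, mouse 1; square, mouse 2). Black bars are the mean and SD of the 2 mice, and the lower end for S100a8 in Helios-deficient mice runs below 0 and is not drawn. The groups overlap for Slpi, Lyz2 and S100a8. How many of all genes lack overlap between 2 and 2 mice was not counted, so lack of overlap is not read as a result.

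The genotypes differed in how many cells carried several members. Cells with at least 3 members other than Lyz2 made up 2.87 and 2.79% of cells in the Helios-deficient mice (16 and 23 cells) and 0.936 and 0.766% in the wild-type mice (11 and 7 cells). At an equal depth of 4000 UMIs per cell the shares were 1.28 and 1.24% in Helios-deficient mice, against 0.262 and 0.112% in wild type. These are shares of 545 and 809 cells, against 1144 and 890, in a single random draw. The wild-type shares rest on very few cells. With Lyz2 counted, cells with at least 3 of the 10 made up 5.75 and 6.43% in Helios-deficient mice, against 2.89 and 3.61% in wild type. The 57 cells were also deeper in the Helios-deficient mice, with medians of 20734.5 and 21719 UMIs, against 14444 and 14227 UMIs in the wild-type mice. In sums per mouse, more such cells and more RNA per cell cannot be told apart.

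Outside the 57 cells the members differed in what was left. There Ms4a3 stood at 11.1 and 14.8 CPM in Helios-deficient mice, against 10.9 and 12.0 CPM in wild type. Hp stood at 0.369 and 0.503 CPM in Helios-deficient mice, against 0.395 and 0.485 CPM in wild type, and Anxa3 at 5.91 and 5.03 CPM against 4.73 and 4.61 CPM. F13a1 stood at 0.923 and 1.13 CPM in Helios-deficient mice, against 0.395 and 0.242 CPM in wild type, and Igsf6 at 0.369 and 0.629 CPM against 0.0986 and 0.364 CPM. Slpi stood at 4.25 and 3.52 CPM in Helios-deficient mice, against 13.2 and 5.21 CPM in wild type, where mouse 1 still holds the immunoglobulin-rich cell. The groups overlapped for Ms4a3 and Hp and did not for Anxa3, F13a1, Igsf6 and Slpi. How many of all genes lack overlap here was not counted, so this is not read as a result. Very few UMIs were left of some genes. Of 22 and 37 Igsf6 UMIs in Helios-deficient mice, 20 and 32 lay in the 57 cells. In wild type it was 12 and 5 of 13 and 8. For F13a1 it was 61 and 141 of 66 and 150 in Helios-deficient mice, against 20 and 10 of 24 and 12 in wild type. None of the 7 members still tested was called by edgeR, and F13a1, Hp and Igsf6 were too low to test. The log2 fold change was 0.21 for Ms4a3, 0.21 for Anxa3 and −1.30 for Slpi. Over all genes, 78 of 11555 were called without the 57 cells, against 92 of 11592 with them. Leaving out the 57 cells removes the members' own UMIs, so the result follows in part from how the cells were picked. Leaving out the 35 cells with at least 3 Elane UMIs instead, a gene outside the set, also left 0 members called by edgeR. The log2 fold change was then 0.18 for Ms4a3 and 0.32 for Anxa3, and 75 of 11568 genes were called. Of the 35 cells, 30 were among the 57. The 35 cells held 89.3% of the Hp UMIs, 72.5% of Igsf6 and 70.2% of F13a1. This result too follows in part from how cells were picked and is not a separate check. Without the 35 cells F13a1 kept a log2 fold change of 2.77 (edgeR adjusted p = 0.095). Tgfbi was the member least touched, at 0.84 without the 57 cells (edgeR adjusted p = 0.079) and 0.87 without the Elane cells (edgeR adjusted p = 0.064). Both sets of cells were left out after the data had been seen.

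**Figure D5:**
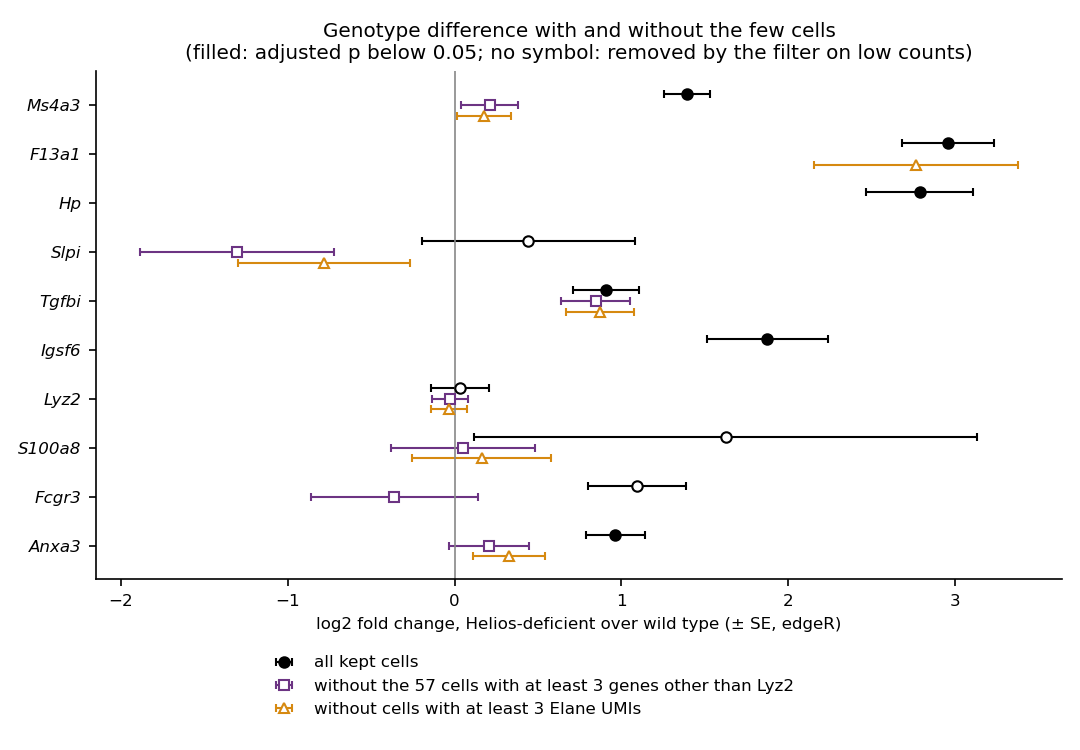
Log2 fold change of each gene, Helios-deficient over wild type (horizontal axis, bars are ± SE), over all kept cells (black circles), without the 57 cells (purple squares) and without cells with at least 3 Elane UMIs (orange triangles). Filled symbols have an edgeR adjusted p below 0.05, and a missing symbol was removed by the filter on low counts. Ms4a3 moves from 1.39 to 0.21 and 0.18, while Tgfbi stays at 0.91, 0.84 and 0.87.

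Within the Elane-high class, 12 and 11 cells came from the Helios-deficient mice and 6 and 3 from the wild-type mice. Ms4a3 stood at 719 and 531 CPM in Helios-deficient mice, against 275 and 191 CPM in wild type (log2 fold change 1.34 ± 0.27 SE, edgeR adjusted p = 0.28). Hp stood at 370 and 285 CPM in Helios-deficient mice, against 193 and 57.3 CPM in wild type (log2 fold change 1.16, edgeR adjusted p = 0.95). F13a1 stood at 236 and 210 CPM in Helios-deficient mice, against 147 and 153 CPM in wild type. The groups did not overlap for Ms4a3, Hp and F13a1 and overlapped for all other members. Anxa3 stood at 156 and 222 CPM in Helios-deficient mice, against 202 and 134 CPM in wild type. How many of all genes lack overlap in this class was not counted. Of 2519 genes tested by edgeR in this class, 0 were called (0%), with 112 at an unadjusted p below 0.05, and DESeq2 called 0, with 33 at an unadjusted p below 0.05. Leaving out 1 mouse changed this: without wild-type mouse 1, 26 genes were called, among them Ms4a3 (1.77) and Hp (2.56) higher and Lyz2 (−2.58) lower. Without wild-type mouse 2 there were 16, with Ms4a3 at 1.20, and without the first Helios-deficient mouse 10, with Lyz2 at −1.82. Lyz2 stood at 349 and 281 CPM in this class in Helios-deficient mice, against 294 and 1968 CPM in wild type. A single cell of wild-type mouse 2 held 87 of those UMIs. The cell of the second Helios-deficient mouse with 329 Lyz2 and 47 Elane UMIs was outside the class, because it had 1 Dntt UMI. The same held for the cell richest in F13a1, with 28 UMIs of F13a1, 13 of Elane and 1 of Dntt. The values of Lyz2 in this class therefore depend on the Dntt rule. Each sum rests on 3 to 12 cells.

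Other genes of the same lineages were read from lists of markers, members left out. Of the 4 azurophil granule genes, 3 were called higher in the Helios-deficient mice by edgeR and none lower, with a median log2 fold change of 1.01, while the median over all genes tested was −0.00029. Ctsg had a log2 fold change of 1.50, Prtn3 0.53 and Mpo 0.41, and Elane was not called at 2.20 (SE 1.14, edgeR adjusted p = 0.70). Elane itself stood at 166 and 135 CPM in Helios-deficient mice, against 56.4 and 6.46 CPM in wild type. Of 12 monocyte genes tested, 1 was called higher, Ccr2 (log2 fold change 1.49, edgeR adjusted p = 0.042), and none lower, with a median of 0.39. Of the 2 mature neutrophil genes that passed the filter, Pglyrp1 and Cxcr2, none was called, and 14 of the list of 16 were too low to test. None of 9 genes of the NADPH oxidase and myeloid adaptors, 10 myeloid receptor genes and 10 myeloid transcription factor genes was called, with medians of −0.14, 0.036 and −0.11. The transcription factor genes Cebpa (−0.30) and Spi1, which encodes PU.1 (−0.15), were not called. Of 8 lymphoid priming genes, 4 were called lower, Cd52 (−0.64), Ltb (−0.58), Flt3 (−0.54) and Satb1 (−0.50). Macrophage markers (8 tested), B cell markers (3), stem cell genes (9), megakaryocyte genes (7) and erythroid genes (7) gave 0 calls by edgeR. Of 3 basophil and mast cell genes, Cpa3 was called lower (−0.59). The others, Mcpt8 (1.01, edgeR adjusted p = 0.063) and Ms4a2 (0.82), were positive and not called, and the median was 0.82. None of the 15 S phase and 14 G2 and mitosis genes was called, and all had a positive fold change, with medians of 0.097 and 0.33. The part of the cell cycle in the member values was not tested.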

How the data were processed

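The deposited matrix holds raw UMI counts per gene, antibody tag and hashtag for 4108 barcodes, made by the authors with Cell Ranger (version not given), Seurat 3.0.0 and build mm10 per the submitters' processing notes. The file headers give software version 3.0.2. Hashtag calls and the list of 3470 kept barcodes are the authors' deposited tables, and the filter behind that list is not given in the sources used here. Barcodes called as doublets or negative by hashtag were left out, and no doublet caller was run within mice.

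From these counts, UMIs were summed per mouse, the replicate (n = 2 per genotype, all in 1 run, so no batch term; mouse numbers follow hashtag order and pair nothing). edgeR 4.0.16 in R 4.3.3 (quasi-likelihood, robust, TMM, filterByExpr) tested all genes with Benjamini-Hochberg adjustment at 0.05. On simulated counts of this comparison it called 87 of 100 genes changed 1.5-fold, 100 of 100 changed 2-fold and 10 of 11392 unchanged ones, among 11592 genes. The changed genes were drawn from those above 10 CPM. Of the members only Ms4a3, Slpi and Lyz2 lie above that level over all kept cells, so these rates do not cover the others. DESeq2 1.42.0, other scaling and filters, left-out mice or cells and thinning to 4000 UMIs (82 shallower cells dropped) were alternatives, and a genotype left with 1 mouse is assumed to vary like the other. CPM is a mouse's UMIs over its total, and totals ran from 5729987 to 10317599 UMIs. Whether the mice were littermates is not stated, so p-values measure the spread between these 4 animals. Gene coordinates and promoters come from RefSeq GRCm38.p6, which matched 10 members by symbol for coordinates and 8 for promoters, not Hp and Anxa3.

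Members and lists were chosen with earlier results of these data known. The text names all members, up to 4 genes per list by smallest p, the 15 genes nearest to the members' mean and the 3 nearest to each member. Genes named from single cells and from the split by Elane were chosen after their values were seen, and leaving out the cell richest in each member was added then too.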

Additional observations from a re-analysis of the deposited data

Results flagged for a closer look

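Among the barcodes the authors called as hashtag doublets, which carry the tags of more than 1 mouse, 17 of 231 (7.36%, exact 95% interval 4.35 to 11.5%) had a UMI of at least 3 members other than Lyz2, against 57 of 3470 kept cells (1.64%, 1.25 to 2.12%). Their median depth was 12133 UMIs, against 7897.5 in kept cells, and the part of depth in this difference was not tested. They stand outside every comparison above.

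Of the 372 single-mouse barcodes that were not kept, 3 carried at least 5 members other than Lyz2. A barcode of wild-type mouse 1 with 34181 UMIs had 8 of the 10 members, with 32 UMIs of Ms4a3, 19 of F13a1 and 12 of Hp; over the kept cells that mouse had 142, 24 and 30 UMIs of these genes. A barcode of the first Helios-deficient mouse with 6796 UMIs, of which 11.5% were mitochondrial, had 8 members. Another of that mouse, with 47555 UMIs, had 9 members and 74 UMIs of Ms4a3. With all single-mouse barcodes counted, 3 members were called by edgeR (F13a1, Tgfbi and Anxa3).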

How the results depend on the processing

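The number of genes called between genotypes by edgeR was 92. That number was 124 without the deepest 5% of cells and 86 without cells with at least 3 members (78 with Lyz2 not counted). Without cells with at least 3 Elane UMIs the number was 75. It was 35 with DESeq2, 296 without the filter on low counts, 57 without the robust option, 144 with all single-mouse barcodes, 57 at 4000 UMIs per cell, and 126 to 565 with 1 mouse left out. The 6 members called were 3 with DESeq2 and with all single-mouse barcodes, 2 at 4000 UMIs and without the deepest 5% of cells, 0 without cells with at least 3 members (also when Lyz2 is not counted, added after seeing the data) and 0 without cells with at least 3 Elane UMIs (added likewise). In the Elane-high class the count of 0 genes was 1 with a minimum of 2 or of 10 Elane UMIs and 0 to 26 with a mouse left out. The difference in cells with at least 3 members, 2.84 percentage points, was 1.14 at 4000 UMIs, 7.99 with 2 members needed, 1.89 with 4 and 1.98 with 3 members other than Lyz2.

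Among log2 fold changes, Slpi turned to −1.58 without cells with at least 3 members (−1.30 without Lyz2 counted), −0.16 without the deepest cells, −0.78 without the Elane cells and −0.069 without wild-type mouse 2, against 1.41 without wild-type mouse 1. With 1 mouse left out Lyz2 ran from −0.17 to 0.21, with −0.063 when wild-type mouse 2 was left out. It turned to −0.034 without cells with at least 3 members (−0.028 without Lyz2 counted), −0.033 without the Elane cells, −0.015 without the deepest cells, −0.0041 with all single-mouse barcodes and −0.048 without its top cell. S100a8 ran from −0.33 to 2.58 with 1 mouse left out and turned to −0.18 without cells with at least 3 members, −0.73 without the deepest cells and −0.47 without its top cell. Fcgr3 turned to −0.59 without the deepest cells and −0.36 without the 57 cells. The cause was not tested. Of the 149 log2 fold changes recomputed, 98 kept their sign and their side of 0.05. F13a1, Igsf6, Hp and Fcgr3 were too low to test without cells with at least 3 members. Depth limits Igsf6, with 80 UMIs in all, and the class of 32 cells. No paired analysis was possible because the mouse numbers used here only follow the order of the hashtags, and the labels tie no Helios-deficient mouse to a wild-type mouse.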
